A study of Mus musculus with 6 samples.

Results

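The genes that copy and divide the genome were followed in 2 mouse embryonic stem cell lines before and after their self-renewal cytokine was withdrawn. The set held 38 named genes in 3 roles: 14 of DNA replication, 13 of the cyclins, their kinases and a kinase-activating phosphatase, and 11 of mitosis. A gene took the value of the probe set whose platform annotation named it alone and that had the highest mean signal over the arrays. Of the 38 genes, 37 had such a probe set, and all 37 lay among the 13277 measured genes of 18193 named on the array. Cyclin B1 (Ccnb1) was not analysed here, since no probe set of the annotation used named it.

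RNA of 6 samples was hybridised to Affymetrix arrays, 1 array for each line at days 0, 4 and 7. Both lines are knockouts of Dnmt1, Dnmt3a and Dnmt3b, the DNA methyltransferase genes, and both express a DNMT1 protein put back ubiquitously. In the deletion line that protein lacks 602 amino acids at the N terminus, and in the full-length line it is whole. Day 0 cells were stem cells in 10% fetal bovine serum with LIF, the cytokine that holds mouse stem cells in self-renewal. Day 4 cells had been embryoid bodies for 1 day and adherent for 3 days, with LIF withdrawn. Day 7 cells were kept for 3 days more in medium with 10% KSR and 10 ng/ml Activin A, a Nodal pathway ligand given to bring on primitive streak formation. With 1 line for each DNMT1 form, the effects of form and of line cannot be told apart, and neither can those of time, medium and Activin A between days 4 and 7.

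Proliferating cells load the MCM helicase onto replication origins in G1, fire it in S phase and then separate the copied chromosomes in mitosis. D-type cyclins with CDK4 or CDK6 release E2F transcription factors from the retinoblastoma protein, and E2F drives genes of DNA replication. Mitotic genes are driven later in the cycle by complexes that bind CHR elements, often beside CCAAT boxes. Mouse embryonic stem cells are known for a short G1 phase and a high rate of division.

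The stem cell label was checked against 8 pluripotency genes, all of which lay above the floor on every array. That floor, a log2 signal of 5.37 (a signal of 41.2), was the level below which values were not read apart. The summed signal of the 8 genes was 72900, 51700 and 74600 on days 0, 4 and 7 of the deletion line, and 79500, 41400 and 48700 in the full-length line. The source label of the deletion line's day 0 sample describes differentiated cells although its title gives day 0. On that array Fgf5, a gene of the primed epiblast, lay at the floor, and Zfp42, a marker of naive stem cells, at 14.30, against 5.52 and 14.45 on the full-length day 0 array. Within the deletion line Pou5f1, Sox2, Esrrb, Klf4 and Tfcp2l1 were highest at day 0, while Nanog, Zfp42 and Dppa3 were highest at day 7. There Zfp42 lay at 14.32, Nanog at 13.94 against 13.31 at day 0, and Dppa3 at 13.16 against 11.28. These markers therefore do not all set the deletion line's day 0 array apart from its day 7 array. Day counts in the full-length line alone are therefore given for each role.

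Markers of other cells also varied with the day. All 4 genes listed for the primed epiblast were higher at day 4 than at day 0 in both lines. Of 10 fibroblast genes, 9 were lower at day 4 than at day 0 in both lines, and 9 were lower at day 7 than at day 0. Their summed signal was 14600, 1070 and 2250 on days 0, 4 and 7 of the deletion line, and 6250, 1170 and 1880 in the full-length line. At day 4 of the deletion line Col3a1, Postn, Lum and Dcn lay at the floor. The other fibroblast values at the floor were those of Lum on the full-length day 0 and day 7 arrays. Of 8 visceral endoderm genes, 7 were higher at day 4 than at day 0 in both lines, and Ttr, Afp, Apoa1, Apoa4 and Apob lay at the floor on both day 0 arrays. Their summed signal was 811, 4980 and 4630 on days 0, 4 and 7 of the deletion line, and 782, 2780 and 1430 in the full-length line. The part of these cells in the differences below was not tested, and in such mixed RNA fewer cells of a type and less RNA per cell cannot be told apart.

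Most of the 37 measured genes were high at every stage and varied little. Levels of 31 of the 37 genes stayed within 2-fold over the 6 arrays, which held for 58.0% of all measured genes. Mitosis genes were the steadiest, with 11 of 11 inside 2-fold and a median spread between highest and lowest array of 0.48 on the log2 scale, against 0.63 for replication genes, 0.80 for cyclins and kinases and 0.89 over all measured genes. Outside 2-fold were Mcm6, Tyms, Ccnd1, Ccnd2, Ccne2 and Cdk6. Apart from Tyms, 36 genes lay at least 4 times above the floor on every array. All measured genes include dim ones, and the set was not compared with genes of like brightness. The part of brightness in this steadiness was therefore not tested.

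No gene of the set passed the threshold in the test, so every difference below is a measured value and not a call. The test was limma, fitted to all 6 arrays with a term for line and a term for day and Benjamini-Hochberg adjusted over the 13277 genes at 0.05. With 1 array per line and day it sets a mean difference against how unevenly the 2 lines moved with the day, with part of that spread shared across genes. The share of all measured genes called was 1.58% for day 4 over day 0, 0.0151% for day 7 over day 4, 1.03% for day 7 over day 0 and 0 for the deletion over the full-length line. At an unadjusted p under 0.05, 12 of the 37 genes were lower and 0 were higher at day 7 than at day 0, against 873 lower and 1423 higher of all measured genes. With arrays set to equal medians, Ccnd2 passed at day 4 over day 0, and Ccnd1 and Ccnd2 passed at day 7 over day 0. How many of all measured genes passed with that scaling is given in the closing section for day 7 over day 0. For day 4 over day 0 it is not given, so that Ccnd2 call has no share beside it.

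**Figure D1:**
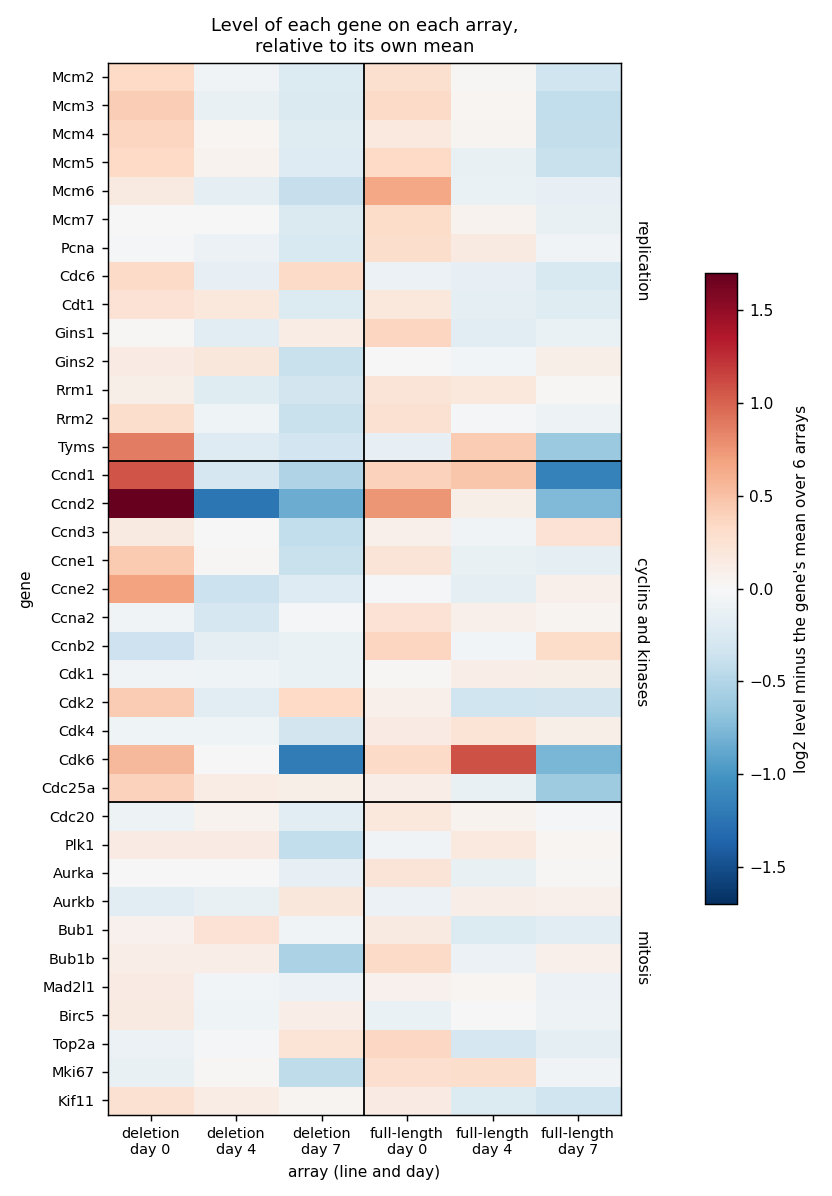
Level of each of the 37 measured genes (rows, grouped by role) on each of the 6 arrays (columns, deletion line left, full-length line right), as the log2 level minus that gene's own mean. Red is above and blue below the mean, and the scale stops short of Ccnd2 on the deletion line's day 0 array. The MCM rows are bluer at day 7 than at day 0 in both lines, Ccnd1, Ccnd2 and Cdk6 have the deepest colours, and most mitosis rows are pale.

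Most replication genes were lower at each later stage. Of the 14, 12 were lower at day 4 than at day 0 in both lines (26.5% of all measured genes), 11 were lower at day 7 than at day 4 (27.8%) and 11 were lower at day 7 than at day 0 (25.6%). In the full-length line alone these counts were 13, 12 and 13 of 14, against 46.2%, 46.9% and 44.9% of all measured genes. Both steps ran downwards in both lines for 10 of the 14 genes, Mcm2, Mcm3, Mcm4, Mcm5, Mcm6, Mcm7, Pcna, Cdt1, Rrm1 and Rrm2, against 4.2% of all measured genes. The full-length line alone had 11 such genes, against 2158 of the 13277 measured genes. With arrays set to equal medians it was 5 in both lines together, and the share of all measured genes at that scaling is not given. The differences were small: the median at day 7 over day 0 was -0.54 in the deletion line and -0.46 in the full-length line, while the median over all measured genes was 0.03 and 0.06.

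The MCM genes, which encode the 6 subunits of the replicative helicase, shared 1 course. Mcm2 lay at 12.69, 12.29 and 12.11 on days 0, 4 and 7 of the deletion line, and at 12.62, 12.36 and 12.00 in the full-length line. Mcm3 lay at 13.21, 12.66 and 12.54 in the deletion line over the same days, and at 13.11, 12.82 and 12.37 in the full-length line. Like the other MCM genes, both were highest at day 0 and lowest at day 7 in each line, with day 4 between. That order was seen in both lines for 4.2% of all measured genes. Mcm4 lay at 13.44, 13.10 and 12.87 in the deletion line, and at 13.24, 13.12 and 12.67 in the full-length line. Mcm5 lay at 14.27, 13.98 and 13.70 in the deletion line, and at 14.26, 13.80 and 13.54 in the full-length line. By the probe sets used, these 4 subunits differed by 0.20 or less between the lines on any day. The other Mcm4 probe set lay at 13.24 in the deletion line and 12.43 in the full-length line at day 0. For the line difference, other MCM probe sets above the floor gave the sign of the one used in 8 of 12 cases. Mcm6 lay at 13.09, 12.77 and 12.54 in the deletion line, and at 13.59, 12.83 and 12.80 in the full-length line, where most of the difference came before day 4. Its fitted difference at day 4 over day 0 was the widest of the MCM genes (log2 -0.54, SE 0.17, adjusted p = 0.169). Mcm7 lay at 14.14, 14.13 and 13.88 in the deletion line, and at 14.44, 14.19 and 14.01 in the full-length line.

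Fitted differences of the MCM genes at day 7 over day 0 ran between -0.71 and -0.34 on the log2 scale, with a median of -0.62. Mcm3 had the lowest adjusted p of the 6 (log2 -0.71, limma adjusted p = 0.0896), and Mcm7 the highest (log2 -0.34, adjusted p = 0.297). With arrays set to equal medians or quantile normalized, all 6 were again lower at day 7 than at day 0 in both lines. With equal medians Mcm7 was the exception at day 4 over day 0, and Mcm6 at day 7 over day 4. Their 12 other probe sets above the floor gave the same sign in 12 of 12 cases for each of the 3 day differences. For Mcm7, whose brightest probe set had the smallest difference at day 7 over day 0, the 4 probe sets ran between -0.62 and -0.34.

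**Figure D2:**
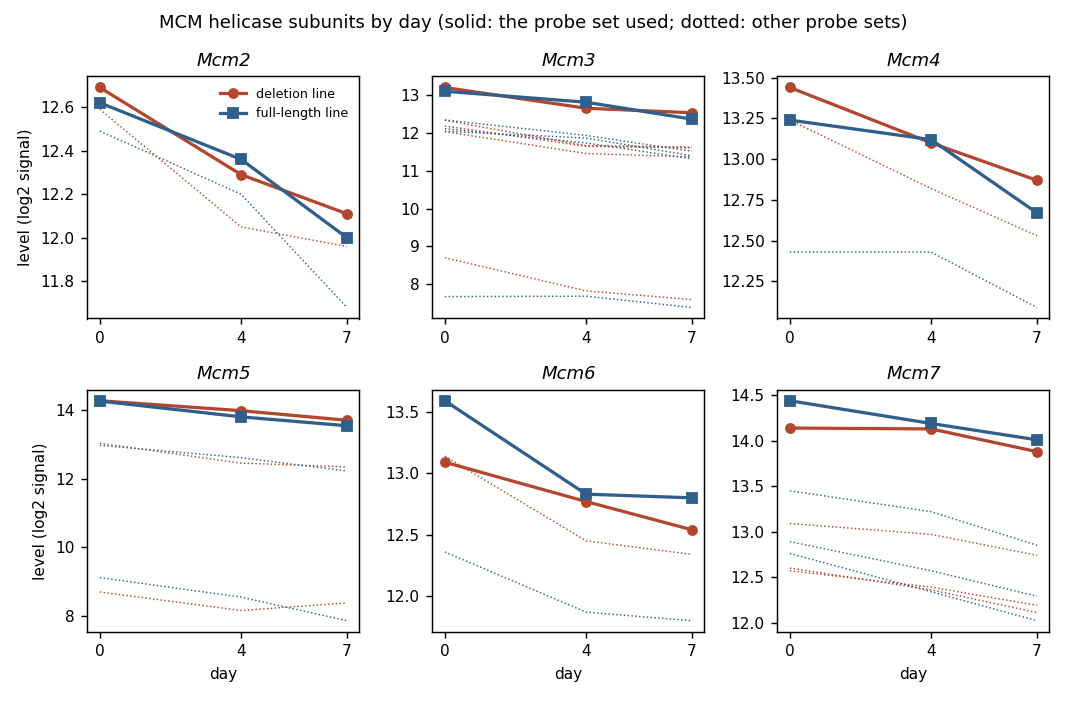
Levels of the 6 MCM genes (log2 signal, vertical axes, 1 scale per gene) at days 0, 4 and 7 (horizontal axes) in the deletion line (red circles) and the full-length line (blue squares). Solid lines are the probe sets used and dotted lines the other probe sets above the floor; all 6 genes are lower at day 7 than at day 0 in both lines, by 0.26 to 0.79.

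Promoters of 2 MCM genes are printed because the genes shared a course and because they hold the E2F sites for which replication genes are known. Windows run from 250 bases before to 50 after the RefSeq start on GRCm38.p6. Capitals mark the 4 motifs searched on both strands: TTCCCGC and TTGGCGC, which are E2F motifs, CCAAT, the CCAAT box, and TTTGAA, the CHR element. A GCGCCAA site followed by T would overlap a CCAAT box. Mcm3 (chr1:20820263-20820562, minus strand) was picked for its difference, and Mcm5 (chr8:75109259-75109558, plus strand) was added after the values were seen.
Mcm3: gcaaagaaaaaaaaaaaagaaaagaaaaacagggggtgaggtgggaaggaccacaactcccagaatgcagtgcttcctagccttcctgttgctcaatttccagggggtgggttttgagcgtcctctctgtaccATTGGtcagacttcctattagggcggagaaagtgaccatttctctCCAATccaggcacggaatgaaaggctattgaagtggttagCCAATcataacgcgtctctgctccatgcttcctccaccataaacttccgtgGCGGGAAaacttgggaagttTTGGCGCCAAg
Mcm5: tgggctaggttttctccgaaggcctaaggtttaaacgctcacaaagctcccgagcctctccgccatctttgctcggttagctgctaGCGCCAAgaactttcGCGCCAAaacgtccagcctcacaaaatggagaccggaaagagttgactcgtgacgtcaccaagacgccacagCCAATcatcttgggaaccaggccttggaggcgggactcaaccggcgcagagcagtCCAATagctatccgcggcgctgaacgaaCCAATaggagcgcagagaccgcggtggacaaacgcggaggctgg
The Mcm3 window held 1 TTCCCGC, 2 TTGGCGC and 3 CCAAT matches, and the Mcm5 window held 2 TTGGCGC and 3 CCAAT matches. In Mcm3 the 2 TTGGCGC matches overlap in 1 stretch, 1 on each strand, while in Mcm5 they stand apart. Either E2F motif stood in 8 of 12 windows of the replication genes (66.7%), against 6.81% of the 32841 promoter windows searched. A gene can have more than 1 window: the 12 belong to 11 genes, and the 32841 to 27018. RefSeq windows were found for 30 of the 38 genes, and Mcm4, Gins1, Gins2, Ccna2, Ccnd1, Ccnd2, Ccne2 and Aurkb had none in the table. A match is a stretch of letters and not a measured binding site.

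Genes that load and accompany the helicase behaved less alike. Cdt1, which brings MCM to origins, lay at 13.54, 13.47 and 13.06 on days 0, 4 and 7 of the deletion line, and at 13.47, 13.13 and 13.08 in the full-length line. Its partner Cdc6 had no common course, at 11.36, 10.89 and 11.36 in the deletion line and 10.93, 10.90 and 10.77 in the full-length line. At day 7 the deletion line thus stood back at its day 0 level for Cdc6 while the full-length line stood at its lowest. Gins1, a subunit of the GINS complex that activates the helicase, lay at 11.48, 11.27 and 11.59 in the deletion line, and at 11.83, 11.28 and 11.35 in the full-length line, lowest at day 4 in both. Gins2, of the same complex, was lowest at day 7 in the deletion line (10.64, 10.69 and 10.12) and highest there in the full-length line (10.51, 10.45 and 10.60). Fitted differences of these 4 genes at day 7 over day 0 lay between -0.44 and -0.08, with adjusted p between 0.224 and 0.88.

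Pcna, the sliding clamp of the DNA polymerases, lay at 14.31, 14.23 and 14.08 on days 0, 4 and 7 of the deletion line, and at 14.63, 14.49 and 14.27 in the full-length line. The steps were small, and the deletion line was lower on every day, by 0.19 to 0.32. Of the ribonucleotide reductase subunits, which make deoxynucleotides, Rrm1 lay at 12.40, 12.10 and 11.99 in the deletion line, and at 12.53, 12.48 and 12.33 in the full-length line. Rrm2 lay at 13.66, 13.30 and 12.99 in the deletion line, and at 13.62, 13.35 and 13.28 in the full-length line. Rrm2 at day 7 over day 0 had a log2 difference of -0.50 (adjusted p = 0.168), and its 2 other probe sets gave -0.47 and -0.63.

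Tyms, which encodes thymidylate synthase, is named alone by 4 probe sets, of which 1 averaged above the floor. A further probe set names it together with a pseudogene and was not used. The Tyms probe set used lay at 6.86, 5.78 and 5.67 in the deletion line, and at 5.85, 6.43 and the floor in the full-length line. The lines therefore went opposite ways to day 4, by -1.08 and 0.58, and the fitted log2 difference at day 7 over day 0 was -0.84 (SE 0.46, adjusted p = 0.394). Without the deletion line's day 0 array that value was -0.25, and without the full-length day 0 array it was -1.43. Between days 4 and 7 the Tyms difference was -0.59 (SE 0.46, adjusted p = 0.680), and it was 0.066 without the full-length day 4 array and -1.24 without that of the deletion line. With the full-length day 7 array at the floor, the Tyms differences are bounds in that line. Its promoter (chr5:30073576-30073875, minus strand), shown because Tyms had the widest difference of the replication genes, held none of the 4 motifs.
Tyms: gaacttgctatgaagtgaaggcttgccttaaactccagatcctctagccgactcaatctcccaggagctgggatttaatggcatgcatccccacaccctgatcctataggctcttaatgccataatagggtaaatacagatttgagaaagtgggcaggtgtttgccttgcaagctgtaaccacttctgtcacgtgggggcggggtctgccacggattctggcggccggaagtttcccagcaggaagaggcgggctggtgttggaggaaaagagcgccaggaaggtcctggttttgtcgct

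**Figure D3:**
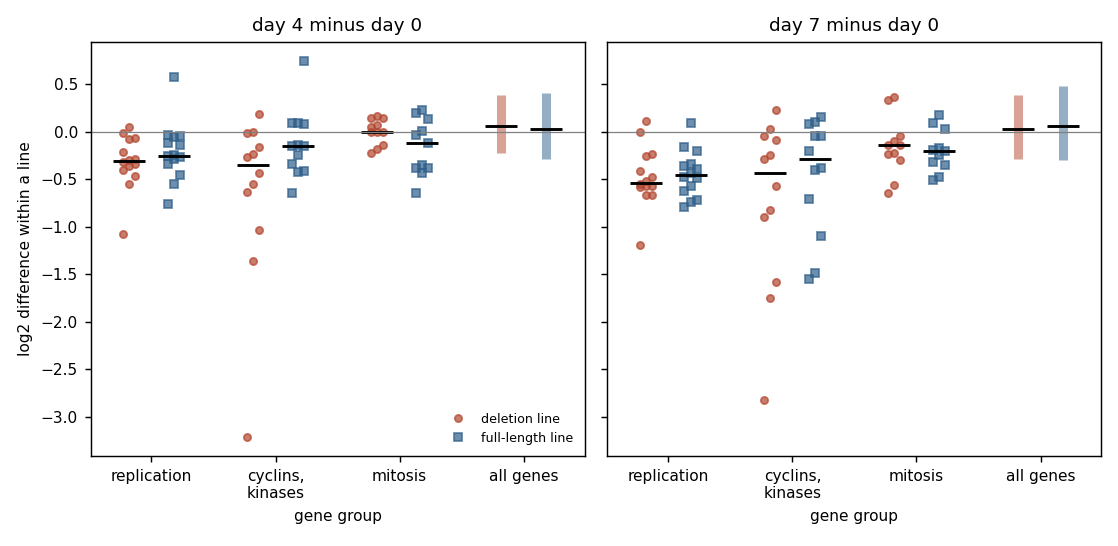
Log2 difference within a line for each measured gene (points, vertical axis) at day 4 over day 0 (left panel) and day 7 over day 0 (right panel), by role, deletion line as red circles and full-length line as blue squares. Black bars are medians, and for all measured genes the shaded bars span the quartiles; replication medians at day 7 are -0.54 and -0.46 in the deletion and full-length lines, cyclin and kinase medians -0.43 and -0.29, mitosis medians -0.14 and -0.20.

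The widest differences belonged to the G1 cyclins and their kinase. Ccnd2, Ccnd1 and Cdk6 were each at least 2-fold lower at day 7 than at day 0 in both lines, 3 of 12 cyclin and kinase genes against 1.33% of all measured genes. In the deletion line alone Tyms joined these 3 (4.72%), and in the full-length line alone the count of the 37 was 3 (4.27%). Of the 12 genes, 7 were lower in both lines at day 4 than at day 0 (26.5% of all measured genes), 6 at day 7 than at day 4 (27.8%) and 7 at day 7 than at day 0 (25.6%). In the full-length line alone the counts were 8, 8 and 9 of 12, where 46.2%, 46.9% and 44.9% of all measured genes were lower.

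Ccnd2, which encodes cyclin D2, lay at 11.36, 8.14 and 8.53 on days 0, 4 and 7 of the deletion line, and at 10.12, 9.47 and 8.63 in the full-length line. Both day 0 arrays were above all later arrays. The deletion line held the highest array and the lowest, and it stood 1.24 above the full-length line at day 0 and 1.33 below it at day 4. The fitted log2 difference was -1.94 at day 4 over day 0 (SE 0.51, adjusted p = 0.122), and -2.16 at day 7 over day 0 (SE 0.51, adjusted p = 0.0984), which is 4.47-fold lower. All 6 other Ccnd2 probe sets above the floor were lower at day 7 as well, and over the 7 the fitted difference ran between -2.45 and -1.69. The dimmest of them lay at the floor on later days. The one that gave -2.45 also lay at the floor, on both day 7 arrays and the deletion line's day 4 array, so that value is limited by the floor. Without the deletion line's day 0 array the day 7 difference of the probe set used was -1.18. For day 4 over day 0, the Ccnd2 difference was -0.96 without the deletion line's day 0 array, -0.98 without its day 4 array and -2.91 without the full-length day 0 array. The fibroblast genes had their highest summed signal on the same array as Ccnd2, the deletion line's day 0 array, and their part in the Ccnd2 difference was not tested.

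Ccnd1, which encodes cyclin D1, lay at 11.79, 10.43 and 10.21 in the deletion line, and at 11.11, 11.19 and 9.56 in the full-length line. The day 7 arrays were the lowest in each line, but the step was taken before day 4 in the deletion line, with a difference of -1.36, and after it in the full-length line, with -1.63. Whether the courses differ between the lines was not tested, since 1 array per line and day leaves nothing to test it against. From day 0 to day 7 the lines gave nearly the same difference, -1.58 and -1.55, and the fit gave -1.56 (SE 0.34, adjusted p = 0.0841). Between days 4 and 7 the Ccnd1 difference was -0.93 (SE 0.34, adjusted p = 0.35). It was -0.21 without the full-length day 4 array, -0.58 without the full-length day 7 array and -1.64 without the deletion line's day 4 array. Over the 3 Ccnd1 probe sets above the floor, the difference from day 0 to day 7 ran between -1.56 and -1.37.

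Cdk6, the kinase partner of the D-type cyclins, lay at 9.23, 8.68 and 7.48 in the deletion line, and at 9.00, 9.75 and 7.90 in the full-length line. Both lines were at their lowest at day 7, and at day 4 they had gone opposite ways, by -0.55 and 0.75. That opposite course depends on the probe set. The dimmest one rose from day 0 to day 4 in both lines, from 6.49 to 7.14 in the deletion line and 7.03 to 7.29 in the full-length line. The fitted log2 difference of Cdk6 was -1.52 at day 7 over day 4 (SE 0.35, adjusted p = 0.192) and -1.42 at day 7 over day 0 (SE 0.35, adjusted p = 0.103). Its 2 other probe sets were lower at day 7 too, and over the 3 the difference from day 0 ran between -1.42 and -0.98. Without the deletion line's day 0 array, that of the probe set used was -0.94. The other kinase of this pair, Cdk4, lay between 12.38 and 12.93 on all 6 arrays, and cyclin D3 (Ccnd3) between 10.89 and 11.55.

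**Figure D4:**
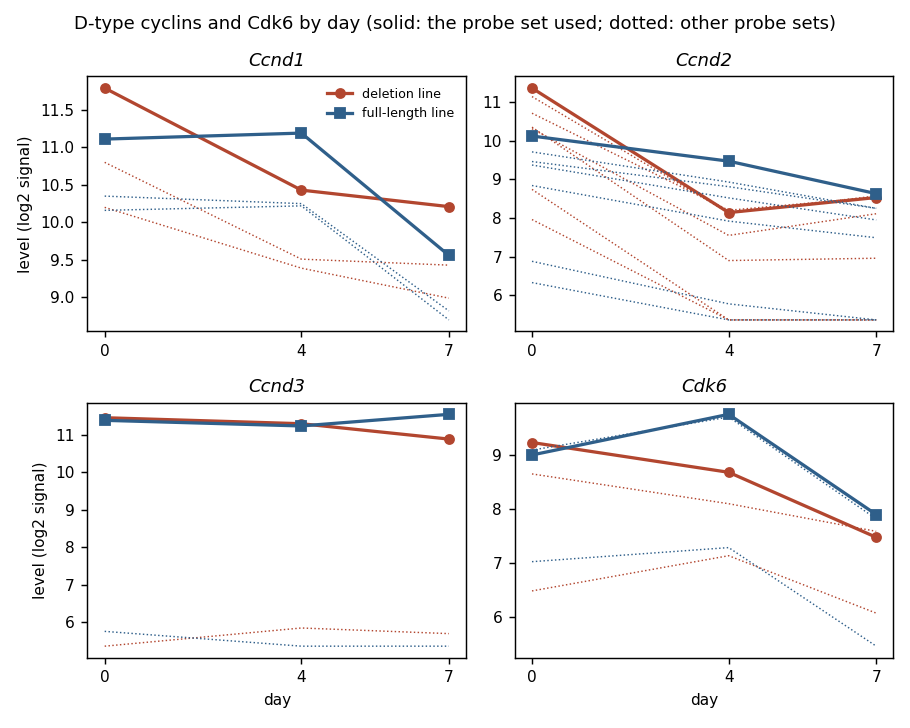
Levels of Ccnd1, Ccnd2, Ccnd3 and Cdk6 (log2 signal, vertical axes, 1 scale per gene) at days 0, 4 and 7 (horizontal axes) in the deletion line (red circles) and the full-length line (blue squares). Solid lines are the probe sets used and dotted lines the other probe sets above the floor. Ccnd1, Ccnd2 and Cdk6 lie lower at day 7 than at day 0 in both lines, by 1.10 to 2.83, while Ccnd3 stays between 10.89 and 11.55.

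Of the other cyclins and kinases, Ccne2 had arrays more than 2-fold apart and the rest did not. Ccne1, a cyclin E gene of the G1 to S transition, lay at 11.57, 11.14 and 10.75 in the deletion line, and at 11.34, 11.00 and 10.96 in the full-length line. Its other probe set gave a difference of 0.16 at day 4 over day 0, against -0.38 for the one used, so that step is uncertain. Ccne2, the second cyclin E gene, lay at 10.26, 9.22 and 9.36 in the deletion line, and at 9.56, 9.42 and 9.66 in the full-length line. Its difference at day 4 over day 0 (log2 -0.59, SE 0.29, adjusted p = 0.372) was -0.11 without the deletion line's day 0 array, -0.39 without its day 4 array and -1.06 without the full-length day 0 array. Cdk2, the kinase that cyclins E and A bind, was lowest at day 4, at 11.50, 10.87 and 11.41 in the deletion line and at 11.15, 10.73 and 10.75 in the full-length line (log2 -0.52 at day 4 over day 0, SE 0.19, adjusted p = 0.226, and -0.34 without the deletion line's day 4 array). Cdc25a, the phosphatase that activates these kinases, lay at 10.92, 10.65 and 10.63 in the deletion line, and at 10.64, 10.40 and 9.93 in the full-length line.

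Ccna2, the cyclin of S and G2 phases, lay between 11.79 and 12.32, and Ccnb2, a mitotic cyclin, between 12.13 and 12.84. Cdk1, the kinase that starts mitosis, had the narrowest spread of the 37 genes, at 12.60, 12.59 and 12.55 in the deletion line and 12.68, 12.77 and 12.76 in the full-length line. Promoters of Cdk6 (chr5:3343643-3343942, plus strand) and Ccne1 (chr7:38107441-38107740, minus strand) are shown as those with the widest differences in this role among genes in the table. Cdk1 (chr10:69352863-69353162, minus strand), the steadiest gene, was added after the values were seen.
Cdk6: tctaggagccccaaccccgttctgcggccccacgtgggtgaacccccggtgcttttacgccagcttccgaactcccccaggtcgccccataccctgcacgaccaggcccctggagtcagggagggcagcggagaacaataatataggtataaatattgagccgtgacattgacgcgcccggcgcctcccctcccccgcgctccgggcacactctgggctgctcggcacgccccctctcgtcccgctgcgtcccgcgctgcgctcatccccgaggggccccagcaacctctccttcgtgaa
Ccne1: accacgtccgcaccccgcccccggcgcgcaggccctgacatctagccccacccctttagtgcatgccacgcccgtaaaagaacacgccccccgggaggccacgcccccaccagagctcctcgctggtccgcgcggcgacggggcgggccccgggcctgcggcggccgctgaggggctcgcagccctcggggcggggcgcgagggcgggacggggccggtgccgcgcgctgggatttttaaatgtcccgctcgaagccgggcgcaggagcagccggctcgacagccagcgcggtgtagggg
Cdk1: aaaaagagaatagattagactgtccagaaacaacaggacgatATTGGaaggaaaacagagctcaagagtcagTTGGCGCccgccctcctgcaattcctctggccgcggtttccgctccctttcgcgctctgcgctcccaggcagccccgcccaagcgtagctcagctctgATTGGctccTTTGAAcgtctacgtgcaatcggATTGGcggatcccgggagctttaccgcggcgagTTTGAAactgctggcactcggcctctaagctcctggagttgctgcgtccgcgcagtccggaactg
The Cdk6 and Ccne1 windows held none of the 4 motifs, while the Cdk1 window held 1 TTGGCGC, 3 CCAAT and 2 TTTGAA matches. No match means only that these letters are not in the window.

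Mitosis genes had the smallest medians of the fitted day differences of the 3 roles, and at day 7 most of them lay slightly lower than at day 0. Within single lines this did not hold at day 7 over day 4. There the mitosis medians were -0.14 in the deletion line and -0.07 in the full-length line, and those of cyclins and kinases -0.03 and -0.045. At day 4 over day 0, 2 of the 11 were lower and 2 higher in both lines, against 26.5% lower and 35.9% higher of all measured genes. At day 7 over day 4, 5 were lower and 1 was higher (27.8% and 28.3%). Between days 0 and 7, 7 were lower and 1 was higher (25.6% and 32.8%). Both steps ran downwards in both lines for 2 of the 11, Mad2l1 and Kif11, and for 4.2% of all measured genes. With arrays set to equal medians 1 gene did so, and the share of all measured genes at that scaling is not given. In the full-length line alone 7, 7 and 8 of the 11 were lower over the 3 day differences, where 46.2%, 46.9% and 44.9% of all measured genes were. The median difference at day 7 over day 0 was -0.14 in the deletion line and -0.20 in the full-length line. Mad2l1, a subunit of the spindle checkpoint, lay between 12.49 and 12.73 on all arrays, and Birc5, which encodes survivin of the chromosomal passenger complex, between 12.33 and 12.60. Of the Aurora kinases, Aurka lay between 11.93 and 12.29 and Aurkb between 10.65 and 11.02. Cdc20, which activates the anaphase-promoting complex, lay between 13.69 and 14.05, and the checkpoint kinase gene Bub1 between 12.24 and 12.72.

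Mki67, which encodes the proliferation marker Ki-67, lay at 11.74, 11.89 and 11.44 on days 0, 4 and 7 of the deletion line, and at 12.16, 12.17 and 11.81 in the full-length line. It was lowest at day 7 in each line (log2 -0.41 at day 7 over day 4, SE 0.16, adjusted p = 0.361), while its days 0 and 4 lay within 0.15 of each other. Bub1b, the checkpoint kinase BUBR1, lay at 11.59, 11.59 and 10.94 in the deletion line, and at 11.81, 11.38 and 11.56 in the full-length line, so its low array was the deletion line's day 7. Plk1, a kinase of mitotic entry, was also lowest there, at 11.10, against 11.46 to 11.69 on the other 5 arrays. Top2a, the topoisomerase that untangles sister chromatids, lay at 13.56, 13.63 and 13.89 in the deletion line, and at 14.01, 13.37 and 13.50 in the full-length line. The lines thus ran opposite ways to day 7 for Top2a, by 0.33 and -0.51. Kif11, a motor of spindle assembly, lay at 10.81, 10.67 and 10.59 in the deletion line, and at 10.69, 10.31 and 10.21 in the full-length line.

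Promoters of Bub1b (chr2:118597961-118598260, plus strand) and Mki67 (chr7:135716330-135716629, minus strand) had the widest differences among the mitosis genes in the table and hold the CHR element for which mitotic genes are known.
Bub1b: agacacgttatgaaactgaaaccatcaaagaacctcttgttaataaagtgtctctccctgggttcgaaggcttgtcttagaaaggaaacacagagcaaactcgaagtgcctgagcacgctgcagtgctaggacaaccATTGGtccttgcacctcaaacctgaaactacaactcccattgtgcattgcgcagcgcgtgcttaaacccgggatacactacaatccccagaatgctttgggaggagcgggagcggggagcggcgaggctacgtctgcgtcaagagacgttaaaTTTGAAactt
Mki67: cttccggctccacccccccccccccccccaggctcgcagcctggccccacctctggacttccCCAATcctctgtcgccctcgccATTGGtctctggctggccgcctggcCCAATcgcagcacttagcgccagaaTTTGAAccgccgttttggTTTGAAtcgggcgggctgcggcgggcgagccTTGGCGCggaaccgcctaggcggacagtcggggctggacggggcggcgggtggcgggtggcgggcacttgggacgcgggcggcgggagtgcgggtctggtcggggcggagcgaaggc
The Bub1b window held 1 CCAAT and 1 TTTGAA match, and the Mki67 window held 1 TTGGCGC, 3 CCAAT and 2 TTTGAA matches. TTTGAA stood in 7 of 10 windows of the mitosis genes (70.0%), in 1 of 12 windows of the replication genes (8.33%) and in 17.9% of all promoter windows. Either E2F motif stood in 1 of the 10 mitosis windows (10.0%). CCAAT stood in 8 of the 10 mitosis windows (80.0%) and 9 of the 12 replication windows (75.0%), against 37.4% of all windows.

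Between the lines most of the set lay close together, and no gene on the array was called by limma, with 670 genes higher and 954 lower in the deletion line at an unadjusted p under 0.05. Of the 37 genes, 9 were lower and 4 higher in the deletion line on all 3 days, against 20.2% and 13.7% of all measured genes. With arrays set to equal medians these counts were 6 and 6. The widest of these were Ccnb2, with 12.13, 12.32 and 12.36 on days 0, 4 and 7 of the deletion line and 12.84, 12.43 and 12.79 in the full-length line (log2 -0.42, SE 0.15, adjusted p = 0.346), and Mki67 (log2 -0.36, SE 0.13, adjusted p = 0.342). By the probe sets used, Cdc25a (log2 0.41, SE 0.16, adjusted p = 0.387) and Cdk2 (log2 0.38, SE 0.16, adjusted p = 0.398) were higher in the deletion line on all days. Cdk4 was lower in it on all days, by 0.22 to 0.41, as were Pcna and Rrm1. Another Cdc25a probe set lay at 10.46 in the deletion line and 10.89 in the full-length line at day 0, with a fitted difference of 0.09. Another Cdk4 probe set lay at 12.16 in the deletion line and 11.98 in the full-length line at day 0. Without the day 0 pair the Ccnb2 difference was -0.27, and without the day 7 pair that of Cdc25a was 0.27 and that of Cdk2 0.24. Other probe sets above the floor gave the sign of the one used in 12 of 18 cases for replication genes, 10 of 17 for cyclins and kinases and 6 of 9 for mitosis genes.

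Gaps of at least 2-fold between the lines on a single day were rare and had no replicate. At day 0 Ccnd2 and the dim Tyms were higher in the deletion line (3.15% of all measured genes), and none of the 37 was lower (2.82%). At day 4 Ccnd2 and Cdk6 were lower in the deletion line (3.54%), by 1.33 and 1.07, and 0 were higher (2.43%). The dimmest Cdk6 probe set lay at 7.14 in the deletion line and 7.29 in the full-length line on that day. At day 7 the count was 0 of 37 in either direction, while 3.95% of all measured genes were at least 2-fold higher and 8.92% at least 2-fold lower in the deletion line. Within the deletion line Ccnd1, Ccnd2, Ccne2 and Tyms were at least 2-fold lower at day 4 than at day 0 (4.07%), and within the full-length line 0 were (5.03%). Between days 4 and 7 the gene past 2-fold was Cdk6 in the deletion line (5.97%), and those in the full-length line were Ccnd1, Cdk6 and Tyms (3.14%), each lower at day 7.

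Further genes of the same machinery were read from 3 lists, and none was called. Of 42 measured replication genes outside the set, 28 were lower and 5 higher in both lines at day 4 than at day 0, against 26.5% and 35.9% of all measured genes. At day 7 over day 4, 10 were lower and 14 higher (27.8% and 28.3%), and at day 7 over day 0, 23 were lower and 4 higher (25.6% and 32.8%). In the full-length line alone 33, 18 and 31 of the 42 were lower (46.2%, 46.9% and 44.9%). The median at day 7 over day 0 was -0.17, while that of the set's own replication genes was -0.47 and that of all measured genes 0.06. Downward steps throughout were seen for 5 of the 42, Pola1, Pole2, Rfc1, Lig1 and Timeless, and for 4.2% of all measured genes. Timeless, a fork protection factor, lay at 10.71, 10.24 and 9.58 in the deletion line, and at 10.35, 10.32 and 9.83 in the full-length line (log2 -0.82 at day 7 over day 0, SE 0.22, adjusted p = 0.119). Lig1, the ligase that joins Okazaki fragments, lay at 12.60, 11.95 and 11.92 in the deletion line, and at 12.89, 12.46 and 12.39 in the full-length line (log2 -0.59, SE 0.16, adjusted p = 0.117). It was lower in the deletion line on all days, with a fitted difference of -0.42, while Rpa2, a subunit of the single-strand binding protein RPA, was higher in it by 0.38, or 0.22 without either day 7 array. Pold1, a polymerase delta subunit, also stood 0.38 higher by the probe set used, but its other probe set gave -0.02. Dut, the dUTPase that keeps uracil out of DNA, was highest at day 4 in both lines, at 12.45, 12.78 and 12.06 in the deletion line and 12.42, 13.05 and 12.38 in the full-length line. The histone chaperone gene Asf1b had a difference of 0.54 at day 7 over day 4. Cdc45, a helicase cofactor, had -0.49 at day 4 over day 0, and -0.24 without the full-length day 0 array. Pole, the leading-strand polymerase, had -0.64 at day 7 over day 0, and -0.26 without the full-length day 7 array.

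Of 33 cell cycle regulators, 14 were lower and 9 higher at day 7 than at day 0 in both lines (25.6% and 32.8% of all measured genes), and 19 were lower in the full-length line alone (44.9%). The widest difference was that of the CDK inhibitor gene Cdkn1c, an imprinted gene for p57. It lay at 8.40, 8.51 and 9.89 on days 0, 4 and 7 of the deletion line, and at 8.89, 8.45 and 12.19 in the full-length line. Both day 7 arrays were above all others, with a log2 difference of 2.56 at day 7 over day 4 (SE 0.50, adjusted p = 0.138) and 2.40 at day 7 over day 0 (SE 0.50, adjusted p = 0.0747). Without the full-length day 7 array these Cdkn1c differences were 1.52 and 1.35. Cdkn1b, the gene for the inhibitor p27, was highest at day 4, at 9.66, 10.17 and 9.67 in the deletion line and 8.98, 9.91 and 9.56 in the full-length line (log2 0.72 at day 4 over day 0, SE 0.23, adjusted p = 0.182, and 0.47 without the full-length day 0 array). Among the E2F genes, E2f3 lay at 10.42, 10.20 and 9.66 in the deletion line, and at 10.42, 10.16 and 9.56 in the full-length line (log2 -0.81 at day 7 over day 0, SE 0.19, adjusted p = 0.0967). Its other probe set above the floor gave 0.15 for the same difference, so the direction for E2f3 is uncertain. E2f4, a repressor E2F, was lowest at day 7, at 7.90, 7.72 and 6.66 in the deletion line and 8.14, 8.24 and 7.28 in the full-length line, and was lower in the deletion line on all days, with a fitted difference of -0.46. E2f6, also a repressor, was lower in the deletion line on all days (log2 -0.60, SE 0.17, adjusted p = 0.301), and Skp2, which targets p27 for degradation, was higher in it by 0.35. Rbl2, the gene for the pocket protein p130, was lowest at day 4 in both lines (log2 -1.04 at day 4 over day 0, SE 0.33, adjusted p = 0.174). Mybl2, a transcription factor of the G2 and M phase programme, had a difference of -0.90 at day 4 over day 0, and -0.35 without the full-length day 0 array.

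Of 40 further mitosis genes, 13 were lower and 6 higher in both lines at day 7 than at day 0 (25.6% and 32.8% of all measured genes), with a median of -0.13. In the full-length line alone 26 were lower (44.9%). Pttg1, which encodes securin, lay at 12.60, 13.28 and 13.61 in the deletion line, and at 13.21, 13.38 and 13.77 in the full-length line, higher at each step (log2 0.79 at day 7 over day 0, SE 0.18, adjusted p = 0.088). Zwint, a kinetochore protein gene, followed the same order, at 11.16, 11.34 and 11.83 in the deletion line and 11.29, 11.54 and 12.05 in the full-length line (log2 0.71, SE 0.16, adjusted p = 0.0857), while 1 of its 5 other probe sets above the floor gave -0.41. Aspm, a spindle pole protein gene, ran the other way (log2 -0.63, SE 0.18, adjusted p = 0.136). Spc24, of the NDC80 kinetochore complex, had a difference of -0.46 at day 4 over day 0, and the kinetochore gene Cenph 0.38 at day 7 over day 4, or 0.15 without the deletion line's day 7 array. Between the lines, the kinesin gene Kif18a was higher in the deletion line on all 3 days, at 10.87, 10.50 and 10.94, against 10.34, 9.84 and 9.93 in the full-length line (log2 0.73, SE 0.16, adjusted p = 0.288). Ect2, a gene of cytokinesis, was also higher in it on all days (log2 0.50, SE 0.12, adjusted p = 0.288). Ncaph, a condensin subunit gene, was higher in it by the probe set used (log2 0.59, SE 0.16, adjusted p = 0.301), but its other probe set above the floor gave -0.15.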

How the data were processed

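RNA of 6 samples, 1 per line and day, was grouped by title. The submitters' processing notes name MAS5 for the deposited Affymetrix signals, whose log2 scale was read from the values. Its version and target intensity are not given in the sources used. Trimmed by 2% at either end, the mean linear signal was 496.7 to 496.9 on the arrays, so a shift of most genes one way would be removed. The number of arrays limits the precision.

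Signals below the floor (the median of the arrays' 40th percentiles, 41.2) were set to it. A gene took its brightest probe set that names it alone, and was measured where the mean signal reached the floor. All 37 symbols matched RefSeq through gene identifiers. Linear models with additive terms for line and day used limma 3.58.1 (R 4.3.3), trended variances, two-sided p-values and a Benjamini-Hochberg threshold of 0.05. This left 2 residual degrees of freedom, to which the prior added 5.63. Nothing says that samples came from repeated cultures, so p-values measure only the spread between these arrays. The fit was tested on simulated data. Of 50 genes changed by log2 1, it recovered 36 between the lines. It recovered 27 at day 4 over day 0 and 23 at day 7 over day 4. At log2 2 these counts were 50, 49 and 49 of 50. False calls numbered 14, 15 and 22 in the same order.

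Fitted differences with SE are given, by rule, for called genes and for the 4 widest of 1 sign in every pair per effect, and the 3 widest per effect in each list of other genes are named; further values are described. The genes and lists were chosen with earlier results of these data known. Alternatives covered the floor, filter, probe sets, scaling, variance trend, factors and each array left out.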

Additional observations from a re-analysis of the deposited data

Results flagged for a closer look

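Between days 0 and 4, 2 genes went opposite ways in the lines by at least log2 0.5 each, a size set after the data were seen. The share of all measured genes that did so is not given here, so the count is not read as a result about the set. Cdk6 differed by -0.55 in the deletion line and 0.75 in the full-length line, a difference of -1.30. Its dimmest probe set was higher at day 4 than at day 0 in both lines, so the opposite course depends on the probe set. Tyms, near the floor, differed by -1.08 in the deletion line and 0.58 in the full-length line, a difference of -1.66. With 1 array per line and day the differences were not tested.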

How the results depend on the processing

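Genes called numbered 210 at day 4 over day 0, 2 at day 7 over day 4, 137 at day 7 over day 0 and 0 between the lines. With arrays at equal medians, 3 genes were called between the lines, 44 at day 7 over day 4 (27 higher and 17 lower, against 2 and 0) and 227 at day 7 over day 0, while 1 gene of the set was called at day 4 over day 0 and 2 at day 7 over day 0. With that scaling, chosen after the data were seen for these counts, 5 replication genes and 1 mitosis gene stepped down in both lines, against 10 and 2. The share of all measured genes that stepped down with that scaling is not given. At day 4 over day 0, calls numbered 135 with the floor at the 50th percentile, 16 without a variance trend, 13 when probe sets were averaged, 0 when dim genes were kept and 18 with day alone. At day 7 over day 4 they numbered 1, with the higher floor, quantile normalization or day alone, and 0 with probe sets averaged or without a trend. At day 7 over day 0 they numbered 65 with the higher floor, 0 with no filter, 3 with probe sets averaged, 3 without a trend and 12 with day alone. Leaving out 1 array gave 0 to 129 calls at day 4 over day 0, 0 at day 7 over day 4 and 0 to 10 at day 7 over day 0. It gave 0 calls among the 37 genes. Of 16 fitted differences named, 1 changed sign, Tyms at day 7 over day 4, to 0.066 without the full-length day 4 array; over the arrays left out it ran between -1.24 and 0.066. The causes were not tested. The terms for line and day already compare days within a line and lines within a day. The labels give no replicate numbers to use as a further block.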
